A study of Mus musculus with 4 samples.

Results

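The respiratory chain and the ATP synthase of mitochondria are built by 5 large protein complexes, and the mRNAs examined here are those of their subunits and assembly factors encoded in the nucleus. The genes were taken by symbol from the edgeR comparison of 2 diets in mouse liver (Nduf, Sdh a to d, Uqcr, Cox4 to Cox8 and Atp5), which gave 60 of the 7000 genes listed. They were 26 genes of complex I, 3 of complex II, 6 of complex III, 12 of complex IV and 13 of complex V. Of the 60, 54 encode structural subunits, 5 encode assembly factors (Ndufaf2 to Ndufaf5 and Sdhaf2), and the last, Cox7a2l, takes part in joining complexes III and IV.

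The RNA was from liver of male FVB/N mice, an inbred strain, placed after weaning on a Se-deficient torula yeast-based diet for 6 weeks. The 0 Se group (mice 1 and 2) received this diet without added Se and the 0.1 Se group (mice 4 and 5) the same diet with 0.1 ppm Se as sodium selenite, so all 4 mice shared the base diet and had no other treatment. Total RNA depleted of rRNA was sequenced, and the comparison between diets is the only form of the data used here. It gives for each gene an mRNA length, a log2 fold change (0.1 Se over 0 Se), the log2 of the mean CPM (counts scaled to the library total), and the p-value and FDR of the test, with no value for a single mouse. Library depths are therefore unknown here, as is how far the 2 mice of a group lay apart, and each level given is a group mean calculated from the mean CPM and fold change.

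Complex I takes electrons from NADH and complex II takes them from succinate, and both pass them to ubiquinone. Complex III hands them on to cytochrome c and complex IV to oxygen, and the proton gradient built on the way drives ATP synthesis by complex V. Liver depends on this chain for gluconeogenesis, urea synthesis and the oxidation of fatty acids. Most subunits are encoded in the nucleus by short mRNAs and imported into mitochondria, and a few core subunits are encoded by mitochondrial DNA under other symbols.

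The diets were separated by mRNAs known to follow Se. Sepw1 was 7.58 CPM in 0 Se and 32.4 CPM in 0.1 Se, a 4.27-fold higher level (95% interval 3.44 to 5.32). Gpx1, glutathione peroxidase 1, was 3.04-fold higher (413 and 1254 CPM), and Selk and Sepp1 were 2.17- and 1.57-fold higher, all 4 with an FDR under 0.05 in edgeR. The column of fold changes names no direction, and it was read as 0.1 Se over 0 Se because selenoprotein mRNAs such as these are known to fall in Se deficiency, so their own sign is not a result.

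None of the 60 respiratory chain and ATP synthase mRNAs changed with the diet at an FDR under 0.05 in edgeR, where 2.41% of the 11033 genes tested were higher and 2.16% lower in 0.1 Se. At an unadjusted p under 0.05, 1 of the 60 was higher and 0 were lower, against 6.63% and 8.1% of all genes tested. That gene was Atp5k, with a p of 0.0416 and an FDR of 0.313 in edgeR, the lowest FDR among the members. The 60 are listed genes only, while the shares of all genes tested also count genes that are not listed. Of the 7000 listed genes, 732 were higher and 894 lower at an unadjusted p under 0.05, and 266 and 238 at an FDR under 0.05. The point estimates were alike in sign: 59 of the 60 were above 0 on the log2 scale and 1, Atp5d, was below it. Of all 7000 listed genes, 51.2% were above 0.

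The differences were small. The median log2 fold change of the 60 listed mRNAs was 0.15 (1.11-fold), the range was -0.11 to 0.29, and the SD over the 60 genes was 0.06. The standard error of a single gene, worked out from its p-value, had a median of 0.14 on the log2 scale and ran from 0.12 to 0.25. So the spread among the 60 listed genes was smaller than the error of each of them. Values close to 0 are not listed, which bears on that spread. With that median error, a change of 1.20-fold would have reached an unadjusted p of 0.05 and a change of 1.34-fold an FDR of 0.05. The 95% interval included no change for 59 of the 60 mRNAs, and it reached 1.5-fold for 3 (Ndufa5, Ndufaf3 and Ndufaf5), with 1.57-fold as the highest upper bound. Changes of 1.5-fold or more were thus outside the interval for the other listed mRNAs, and changes near 1.1-fold were not detectable gene by gene in 2 mice against 2.

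Which genes are listed bears on these medians. The listing stops at a p-value of 0.553 and leaves out 4033 of the genes tested, so a gene close to no change does not appear. At the median error of the members, the limit falls at a log2 change of 0.08 (1.06-fold) in either direction. The GENCODE vM1 annotation has 93 genes with symbols of the same pattern, and 34 of them are not listed, either because they were not tested or because their p-value was above the limit. Among these 34 are Sdha and Sdhd (subunits of complex II), Uqcrc1 and Uqcrfs1 (complex III), and Atp5a1 and Atp5b (the alpha and beta subunits at the catalytic sites of ATP synthase). The longest annotated transcript had a median of 754 bases for the listed genes of the pattern and 1304.5 bases for those not listed. Complexes I (875 and 1478 bases), III (541 and 1509) and V (809 and 1916) had the same order. Complexes II (3096 and 1287) and IV (684.5 and 546.5) did not, but the longest transcript can exceed the listed mRNA. Sdhc was 3171 bases by its longest transcript and 1179 as listed. By listed length, the listed genes had medians of 1179 bases in complex II and 557 in complex IV. A shift common to the 60 mRNAs, fitted with the missing p-values taken into account, was 0.10 on the log2 scale, below their plain median of 0.15. Medians given here describe listed genes and not all subunits. In whole liver, fewer cells of a type and less of these mRNAs in each cell cannot be told apart.

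**Figure D1:**
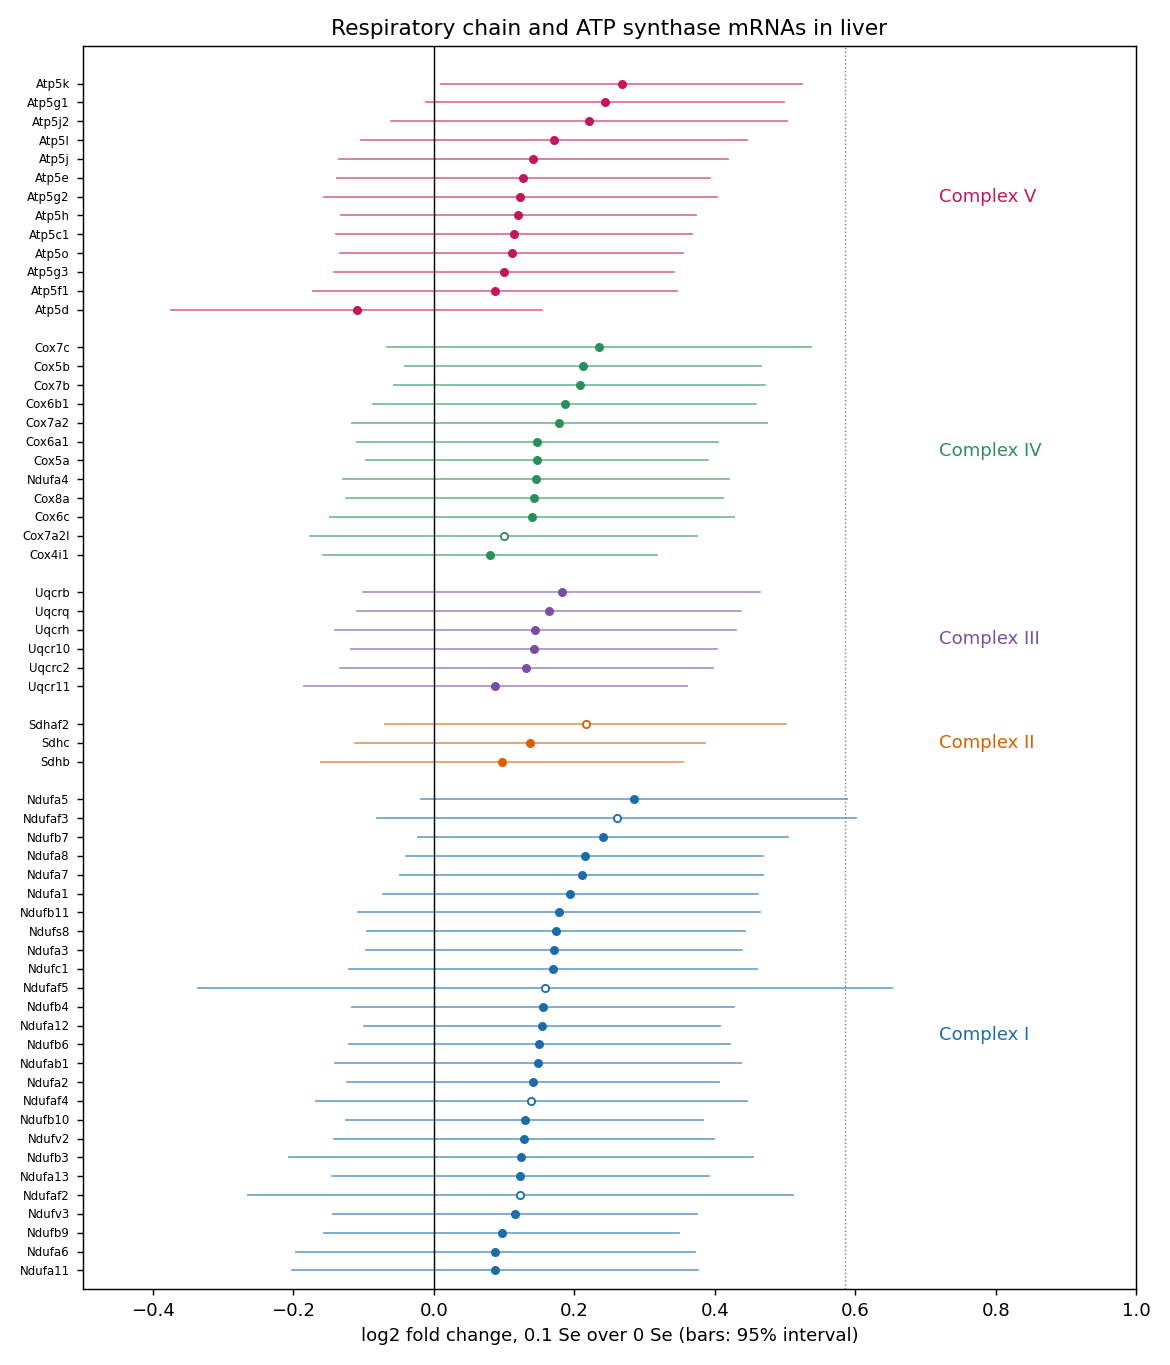
Log2 fold change (0.1 Se over 0 Se, x axis) of each of the 60 listed mRNAs, grouped by complex, with 95% intervals worked out from the p-values as bars. Filled points are structural subunits, open points are assembly factors and Cox7a2l, and the dotted line marks 1.5-fold; 59 points lie above 0, Atp5d lies below it, and the bar of Atp5k alone stays clear of 0.

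In complex I all 26 listed mRNAs had a point estimate above 0, from 0.09 to 0.29 on the log2 scale (median 0.15), and none passed the test. Their summed level was 1769 CPM in 0 Se and 1956 CPM in 0.1 Se. Ndufa5, an accessory subunit of the arm that reaches into the matrix, had the highest fold change of the complex and of all 60 genes. It was 41.6 CPM in 0 Se and 50.7 CPM in 0.1 Se, 1.22-fold (95% interval 0.988 to 1.504). At the other end, Ndufa11, an accessory subunit of the membrane arm, was 53.7 and 57.1 CPM (1.06-fold, 0.870 to 1.30). Ndufb9, a membrane arm subunit, had the highest level of the complex, 215 and 230 CPM, with a 1.07-fold difference (0.897 to 1.27). These 3 intervals overlap widely, and the highest and the lowest member of the complex do not differ beyond their errors.

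The core subunits of complex I carry the flavin and the iron-sulfur clusters that pass electrons, and 2 of the 7 encoded in the nucleus were listed. Ndufs8, an iron-sulfur subunit, was 66.6 and 75.2 CPM (1.13-fold, 0.937 to 1.36). Ndufv2, which holds an iron-sulfur cluster near the site of NADH oxidation, was 124 and 136 CPM (1.09-fold, 0.906 to 1.32). Both had the sign and the size of the 20 accessory subunits listed, whose median was also 0.15. The 4 listed assembly factors of complex I (Ndufaf2 to Ndufaf5) had a median log2 fold change of 0.15 as well. Ndufaf5, an enzyme that modifies a core subunit during assembly, had the lowest level of all members, 4.36 and 4.86 CPM, and the widest interval (0.792- to 1.57-fold).

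Of the 4 subunits of complex II, Sdhb and Sdhc were listed. Sdhb, the iron-sulfur subunit, was 224 CPM in 0 Se and 240 CPM in 0.1 Se (1.07-fold, 0.895 to 1.28). Sdhc, a membrane anchor, was 108 and 119 CPM (1.10-fold, 0.925 to 1.31). The assembly factor Sdhaf2, needed to attach the flavin to Sdha, had the highest fold change of the complex, with 33.0 and 38.3 CPM (1.16-fold, 0.953 to 1.42). All 3 had point estimates above 0 and intervals that included no change.

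In complex III, 6 of 8 subunits of the pattern were listed, with log2 fold changes of 0.09 to 0.18 and a median of 0.14. Uqcrb, a small subunit near a ubiquinone site, was at the upper end with 140 and 159 CPM (1.13-fold, 0.933 to 1.38). Uqcr11, another small subunit, was at the lower end with 167 and 177 CPM (1.06-fold, 0.880 to 1.28). Uqcrc2, one of the large core proteins facing the matrix, had the highest CPM of the complex, 305 and 334 (1.10-fold, 0.912 to 1.32). The summed level of these 6 genes was 1025 CPM in 0 Se and 1129 CPM in 0.1 Se. Their range leaves out Cyc1, a subunit of complex III outside the pattern, which was at -0.09.

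Over listed genes, complex IV had the highest summed level, 2200 CPM in 0 Se and 2446 CPM in 0.1 Se. Its 12 mRNAs all had point estimates above 0 (median log2 fold change 0.15). Such sums leave out unlisted subunits, among them Atp5a1 and Atp5b of complex V, and so do not rank the whole complexes. Cox7c, a small membrane subunit, had the highest fold change, with 33.8 and 39.8 CPM (1.18-fold, 0.955 to 1.45). Cox5b, the zinc-binding subunit on the matrix side, was 135 and 157 CPM (1.16-fold, 0.972 to 1.38), and Cox5a was 99.1 and 110 CPM (1.11-fold, 0.935 to 1.31). Cox4i1, a large subunit through which ATP slows the enzyme, had the lowest fold change, 296 and 313 CPM (1.06-fold, 0.896 to 1.25). Cox4i1 also had the smallest standard error of the 60 genes, so the low value did not come with a wide interval. Ndufa4, named for complex I and later placed in complex IV, had the highest CPM of the complex, 310 and 343 (1.11-fold, 0.915 to 1.34).

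Several subunits of complex IV have paralogs with different tissue patterns, and the listed ones were the forms known from liver. Cox6a1 (1.11-fold), Cox6b1 (1.14-fold), Cox7a2 (1.13-fold) and Cox8a (1.10-fold) were listed between 168 and 242 CPM. The forms known from heart and skeletal muscle (Cox6a2, Cox7a1 and Cox8b), from testis (Cox6b2, Cox7b2 and Cox8c) and from lung (Cox4i2) were not listed. No skeletal muscle marker of a list of 8 was listed either. Cox7a2l, related to Cox7a2 in sequence, was 156 and 167 CPM (1.07-fold, 0.885 to 1.30). Whether the unlisted paralogs were expressed below the filter was not tested, since genes with a high p-value are missing in the same way.

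In complex V, 12 of the 13 listed mRNAs had point estimates above 0 (median log2 fold change 0.12), and the complex held both the lowest p-value of the members and the one estimate below 0. Atp5k, the e subunit in the membrane where synthase dimers form, was 97.8 CPM in 0 Se and 118 CPM in 0.1 Se. Its difference was 1.20-fold, with a 95% interval (1.01 to 1.44) that just excluded no change before adjustment. Atp5k is also the shortest mRNA of the 60, at 292 bases. Atp5d, the delta subunit at the foot of the central stalk, was 105 and 97.8 CPM (0.927-fold, 0.772 to 1.11, FDR 0.798 in edgeR). The interval of Atp5d overlapped those of the other members, and its sign is that of a single gene with a p-value near the end of the listing.

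Of the F1 subunits, which hold the catalytic sites and the central stalk, 3 of 5 were listed. All 10 membrane and peripheral stalk subunits with an Atp5 symbol were listed, and subunits with other symbols are not counted here. Atp5c1, the gamma subunit that turns inside the head, was 320 and 346 CPM (1.08-fold, 0.908 to 1.29). Atp5f1, the b subunit of the peripheral stalk, had the highest CPM of all 60 genes, 332 and 353 (1.06-fold, 0.888 to 1.27). The membrane and stalk subunits had a median log2 fold change of 0.13, and the 13 listed genes of the complex had a summed level of 2005 and 2191 CPM.

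Atp5g1, Atp5g2 and Atp5g3 encode the same mature c subunit, the protein of the rotor ring, behind different import sequences. Their coding sequences bear on whether short reads could be told apart, and a stretch of 60 bases within the shared part is shown for each from the reference transcripts, 5′ to 3′, with capitals at the 12 positions that differ among the genes. The genes lie on NCBIM37 (mm9) at chr11:95930166-95936984, chr15:102493299-102501478 and chr2:73746504-73749383, all on the minus strand, and the stretches are coding bases 289 to 348, 319 to 378 and 304 to 363.
Atp5g1: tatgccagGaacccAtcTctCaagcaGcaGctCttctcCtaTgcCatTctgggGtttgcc
Atp5g2: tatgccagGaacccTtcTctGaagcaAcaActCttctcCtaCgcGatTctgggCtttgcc
Atp5g3: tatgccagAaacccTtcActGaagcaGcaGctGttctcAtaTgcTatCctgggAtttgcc

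Over the last 228 coding bases, Atp5g1 and Atp5g2 had 85.1% of bases in common, Atp5g1 and Atp5g3 79.8%, and Atp5g2 and Atp5g3 78.5%. Any window of 50 bases, the read length, held at least 4 differences between a pair, above the 2 mismatches allowed in the alignment, so reads without errors from these bases match 1 of the 3 genes. Atp5g1 was 131 CPM in 0 Se and 155 CPM in 0.1 Se (1.18-fold, 0.992 to 1.41). Atp5g2 was 110 and 120 CPM (1.09-fold, 0.897 to 1.32), and Atp5g3 was 159 and 170 CPM (1.07-fold, 0.907 to 1.27). The order of the fold changes is Atp5g1, Atp5g2, Atp5g3, with intervals that overlap. Per kilobase of mRNA the mean level was 178 CPM for Atp5g1, 178 CPM for Atp5g2 and 243 CPM for Atp5g3.

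For other members unique alignment is less sure. Of the 60 mRNAs, 45 had only unique 50-base windows among the longest coding transcripts of GENCODE vM1, with 2 mismatches allowed. Under 90% of windows were unique for 7 of them, namely Atp5h (27.4%), Cox5b (32.9%), Atp5o (39.9%), Atp5l (41.8%), Cox7c (56.5%), Uqcr10 (71.2%) and Ndufa13 (72.4%). Reads from shared windows are lost to unique alignment where the RefSeq set held the same copies, which was not tested, so the values of these 7 are uncertain.

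Levels between genes were compared per kilobase of mRNA, as mean CPM over the 4 libraries. The median was 169 CPM per kilobase over the 60 genes. Ndufa4 was highest at 663, and the leading genes of the other complexes were Uqcrh, the hinge protein of complex III, at 402, Atp5k at 369, Ndufb9 at 342 and Sdhb at 216. Complex I had a median of 95.4 CPM per kilobase (104 for its subunits alone) and complex II, with 3 genes, 96.5. Both were below complex III (282), complex IV (287) and complex V (222). The assembly factors were at the bottom, between 1.69 (Ndufaf5) and 16.2 (Ndufaf4).

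**Figure D2:**
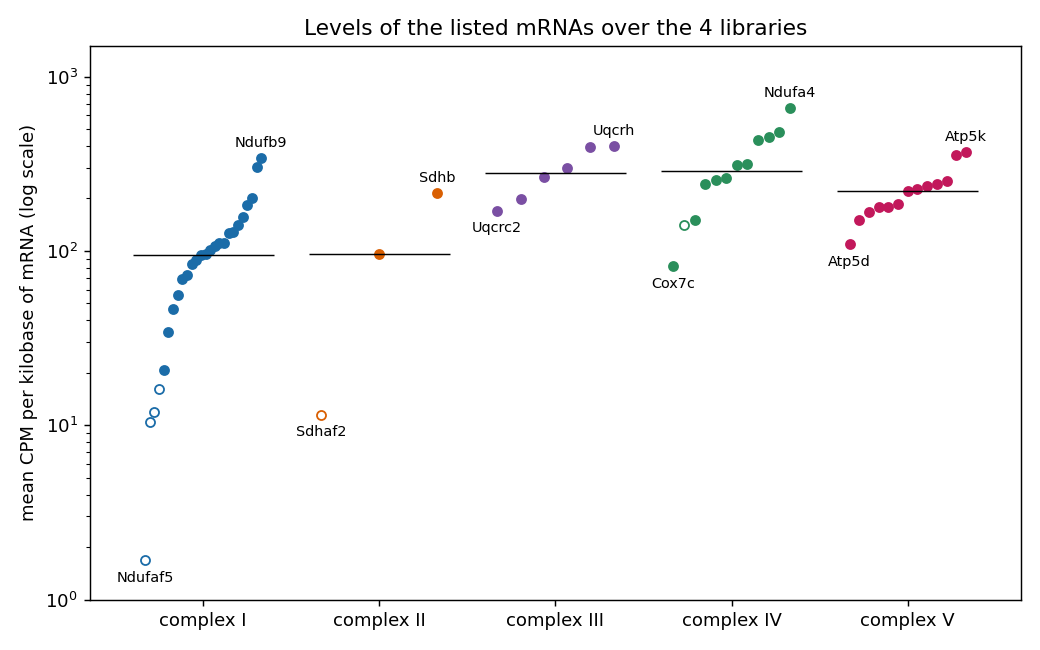
Mean CPM per kilobase of mRNA over the 4 libraries (y axis, log scale) for each listed gene, by complex (x axis), with the median of each complex as a line. Filled points are structural subunits and open points are assembly factors and Cox7a2l; Ndufa4 is highest at 663 and Ndufaf5 lowest at 1.69.

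The members were compared with other mRNAs of similar length, because short mRNAs as a whole had fold changes above 0 in this comparison. When the 7000 listed genes were put in 20 classes by length, 96.0% of the shortest class (292 to 832 bases) and 9.14% of the longest had a point estimate above 0. The fitted shift went from 0.16 in the shortest class to -0.22 in the longest on the log2 scale. Length and log2 fold change had a rank correlation of -0.426 over the 7000 genes and -0.308 over the 60, as a description of points that share the same 4 libraries. Most members lie at the short end, with a median length of 641 bases, and 58 of the 60 are shorter than the median listed gene (2959.5 bases).

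In the shortest class lay 42 members, and all 42 had a point estimate above 0, as did 294 of the 308 other genes (95.5%). The median log2 fold change was 0.15 for the members and 0.23 for the others, and 31 of the others (10.1%) had an FDR under 0.05 against 0 of the members. The members had higher counts, with a median of 111 CPM against 23.6 CPM. In the next class (833 to 1122 bases) 5 of 6 members were above 0, and 303 of the 344 others (88.1%). The sign of nearly all members is therefore also that of nearly all other short mRNAs.

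**Figure D3:**
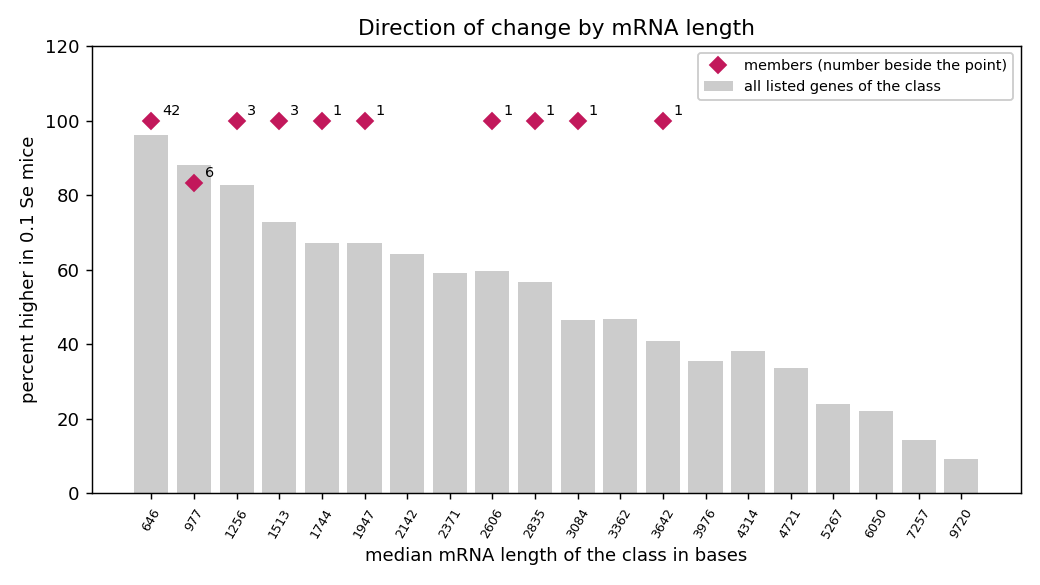
Percent of listed genes with a point estimate above 0 (y axis) in each of 20 classes of mRNA length (x axis, median length of the class in bases). Grey bars are all listed genes of the class and diamonds the members, with their number beside each; the bars fall from 96.0% to 9.14%, and the diamonds are at 100% except in the second class, where 5 of 6 members were above 0.

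Each member was then set against the 200 listed genes nearest in length that are no members. The median member was 0.07 below the median of its peers on the log2 scale, and 51 of the 60 were below it and 9 above. The percentile of a member among its peers had a median of 28 and ran from 5.5 (Uqcr11) to 75.5 (Sdhaf2). Among peers that also had a mean CPM within a factor of 4, the median difference was -0.02 and 21 members were above. By complex, the median difference from peers of similar length was -0.05 in complex I, -0.04 in complex II, -0.09 in complex III, -0.07 in complex IV and -0.08 in complex V. Against these listed peers, no complex had a median difference above 0. Genes close to no change are missing among the peers, so their medians can lie further from 0 than the fitted shift. In the shortest class the other genes had a median of 0.23, against a fitted shift of 0.16 for the class. Their median standard error was 0.159, and that of the members 0.138. How much of the differences comes from the listing was not tested.

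After the fitted shift of the length class was subtracted, the median of the members was 0.01 on the log2 scale, and 34 of the 60 were above 0. The members were among the genes to which the shift was fitted (42 of 350 in the shortest class). The shift is therefore not independent of their values, unlike the peers above, which held no members. The medians by complex were then 0.03 in complex I (18 of 26 above 0), 0.03 in complex II (2 of 3), -0.0013 in complex III (3 of 6), -0.0055 in complex IV (5 of 12) and -0.00019 in complex V (6 of 13). None had an FDR under 0.05 after the subtraction, against 3.16% of the genes tested (349 genes, all of them listed), and the lowest was 0.521, for Atp5d. A trend with GC content, treated in the same way, left the median at 0.15 and all 60 members above 0. Length and the kind of protein go together in these genes, so their parts in the fold changes cannot be told apart within the short classes.

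**Figure D4:**
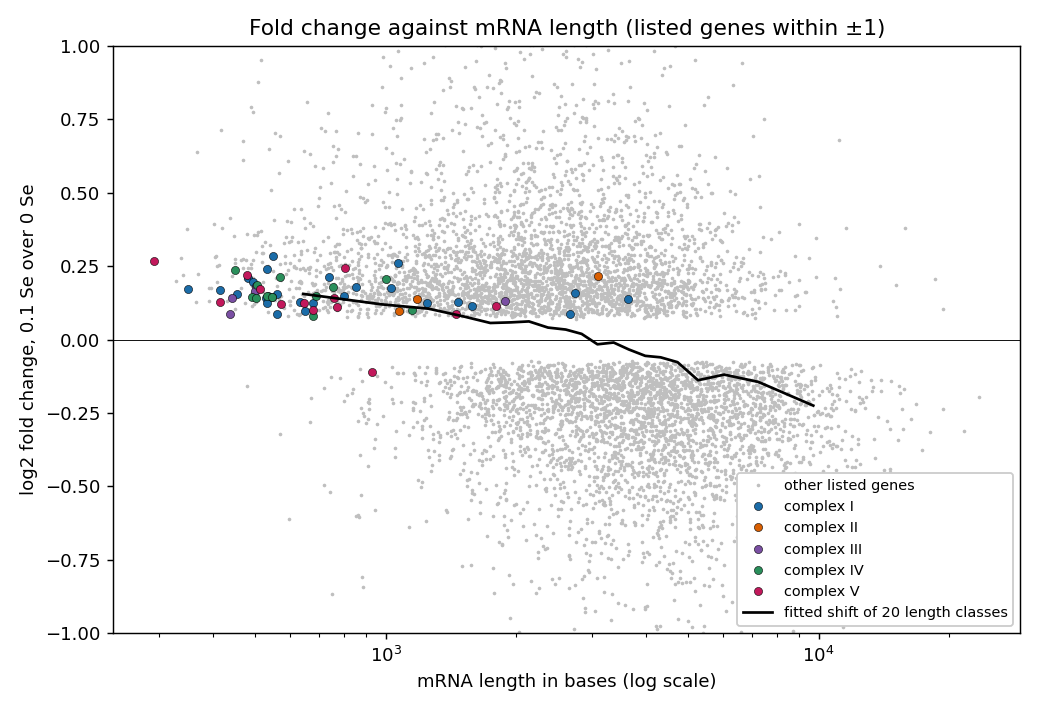
Log2 fold change (0.1 Se over 0 Se, y axis) against mRNA length in bases (x axis, log scale), with members coloured by complex, other listed genes with values within ±1 in grey, and the fitted shift of the 20 length classes as a line. The empty band around 0 is where p-values exceed the largest listed (0.553), and the members lie along the upper edge of that band at the short end, close to the line.

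The 4 members longer than 2000 bases were Ndufa11 (2661 bases), Ndufaf5 (2732), Sdhaf2 (3097) and Ndufaf4 (3632), of which 3 encode assembly factors. All 4 had point estimates above 0, where 40.9% to 59.7% of the genes in their length classes did, and the median of their differences from peers was 0.16. Ndufa11, the structural subunit among them, was below its peers (0.09 against a peer median of 0.12), and the other three were above theirs. Sdhaf2 was at 0.22 against a peer median of -0.11, and Ndufaf4, with 56.0 and 61.6 CPM, at 0.14 against -0.10. Genes close to no change are missing among these long peers too, so where about as many lie above 0 as below, their median depends on the listing. The fitted shift, which allows for the missing genes, was -0.02 at the length of Sdhaf2 and -0.03 at that of Ndufaf4. After its subtraction all 4 members were above 0, with a median of 0.15. None of the 4 passed the test (lowest FDR 0.539 in edgeR, for Sdhaf2), and each interval included no change.

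Other groups of genes give a measure of the same kind. Of 76 listed mRNAs of cytosolic ribosomal proteins, 74 were above 0, with a median log2 fold change of 0.17 at a median length of 729.5 bases. For mitochondrial ribosomal proteins, which make the subunits encoded by mitochondrial DNA, 47 of 48 were above 0, with a median of 0.19 at 1009.5 bases. Of 35 mRNAs of mitochondrial carriers and import, at a median of 2301 bases, 19 were above 0 (54.3%). The first 2 groups had 0 genes with an FDR under 0.05 and the third had 3 of 35, where 504 of all 7000 listed genes did. Fitted with missing p-values taken into account, the common shift was 0.10 for the respiratory chain and ATP synthase, 0.12 for cytosolic and 0.13 for mitochondrial ribosomal proteins, and 0.01 for carriers and import. The short mRNAs of ribosomal proteins in the cytosol and in mitochondria thus had the sign and about the size of the members, and differences between these groups were not tested.

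Genes that act with the complexes but fall outside the pattern were few. Of 5 other subunits and partners, all listed, 4 were above 0 and none passed the test. Cycs, cytochrome c, was 221 CPM in 0 Se and 240 CPM in 0.1 Se (1.09-fold, 0.904 to 1.31). Cyc1, the cytochrome subunit of complex III, was 104 and 97.2 CPM (0.938-fold, 0.785 to 1.12) and so had the sign of Atp5d. Of 35 assembly genes outside the pattern, 15 were listed, 14 of them above 0 with a median log2 fold change of 0.15, and none passed the test. The widest estimates in that list, named after the values were seen, were Bcs1l (1.32-fold, 10.02 and 13.3 CPM), which inserts the iron-sulfur protein into complex III, and Ttc19 (0.794-fold, 15.5 and 12.3 CPM), which also serves complex III.

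Promoters of the members were searched for motifs of factors known to act on these genes, namely NRF1 (CGCATGCG), the ETS family that includes GABP (CCGGAAG) and YY1 (AAGATGGCG), on both strands from 250 bases before to 50 after the start. Of the 60 members, 52 matched a promoter of RefSeq on GRCm38.p6, a later build than that of the gene positions above. The NRF1 letters were found in 10 of 52 (19.2%), against 4.43% of 5624 listed genes and 2.07% of 27025 promoters of all genes. The ETS letters were found in 15 (28.8%), against 20.02% and 9.93%, and the YY1 letters in 3 (5.77%), against 3.47% and 1.64%. Another 25 genes of the pattern were annotated and not listed. Of these, the NRF1 letters were in 1 (4%), the ETS letters in 4 (16%) and the YY1 letters in 5 (20%). Any of the 3 was found in 10 of these 25 (40%) and in 22 of the 52 listed members (42.3%). Of the listed genes as a whole, 25.7% had any of the 3.

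The NRF1 matches of 5 members, chosen after the values were seen to cover complexes I, III, IV and V and higher and lower fold changes, are shown with flanking bases, 5′ to 3′ in the direction of the gene, the motif in capitals. They lie at chr5:108434430-108434459 (Atp5k), chr2:36049329-36049358 (Ndufa8), chr5:115349101-115349130 (Cox6a1), chr15:102671070-102671099 (Atp5g2) and chr10:80406808-80406837 (Uqcr11) on GRCm38.p6, all on the minus strand.
Atp5k: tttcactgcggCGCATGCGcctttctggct
Ndufa8: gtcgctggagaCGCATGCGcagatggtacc
Cox6a1: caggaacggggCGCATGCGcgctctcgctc
Atp5g2: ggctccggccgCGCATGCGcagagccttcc
Uqcr11: gatcgccttcaCGCATGCGctatacgtctg

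The log2 fold changes of these 5 were 0.27, 0.21, 0.15, 0.12 and 0.09. The 10 members with the NRF1 letters had a median of 0.14 and the 42 without them 0.15. For the ETS letters both medians were 0.15, and for the YY1 letters they were 0.17 (3 genes) and 0.15. A match of letters is a description of the sequence, and the medians with and without the letters were close.

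Markers of other liver cells moved with the diet in the same libraries. All 10 Kupffer cell markers were higher in 0.1 Se with an FDR under 0.05 in edgeR (median log2 fold change 0.69), and their sum was 530 CPM in 0 Se and 815 CPM in 0.1 Se. Of them C1qa (1.69-fold), Cd5l (1.73-fold) and Marco (2.13-fold) are examples. All 8 stellate cell markers had estimates below 0 and 4 of them (Reln, Col1a1, Col3a1 and Lum) fell with an FDR under 0.05, the sum being 524 CPM in 0 Se and 379 CPM in 0.1 Se. These mRNAs are long, with a median of 5023.5 bases, and in the length class that holds this median 24% of listed genes were above 0. Their median log2 fold change was -0.62, and -0.45 after subtraction of the length shift. Of 10 hepatocyte markers 6 were listed, at means of 1415 to 21876 CPM, and 1, Fgb, a fibrinogen chain, was higher with an FDR under 0.05 (1.32-fold). Endothelial markers were listed for 5 of 8, none with an FDR under 0.05, and of 7 erythroid markers Alas2 was listed (1.42-fold higher, FDR 0.0154 in edgeR). The 60 members together summed to 7366 CPM in 0 Se and 8119 CPM in 0.1 Se. The part of cell composition in the fold changes of the members was not tested.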

How the data were processed

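Liver RNA of 2 mice per diet was depleted of rRNA (Ribo-Zero) and sequenced on a HiSeq 2000 as single 50-base reads. The authors trimmed the reads, removed rRNA, and aligned the rest with Bowtie to RefSeq mRNAs of mm9 (the longest isoform of a gene, unique hits, 2 mismatches allowed). The authors then compared genes over 1 CPM in at least 3 samples with edgeR. The sources used here do not name the version, test or normalization that the authors chose in edgeR. The log2 fold change, log2 mean CPM, p-value and FDR are used as deposited. They are the authors' own comparison, the only values used here, and they rest on edgeR's pooled estimate of the spread. Counts per mouse and depth were not analysed here. Whether the mice were handled separately beyond their numbers is not given, and 2 mice per diet limit the precision.

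The number of genes tested was FDR times rank divided by p. Standard errors are the size of the log2 fold change over the normal deviate of the p-value, and intervals are 95%. Group levels assume that the mean CPM is the average of both diets. Shifts of 20 length classes or GC classes were fitted by maximum likelihood to the listed genes, members included. Unlisted p-values were treated as truncated, genes beyond 3 standard errors were left out, and unlisted genes counted as unchanged in the new FDR. Below the median length of the shortest class (645.5 bases) the length shift was held at its value there (0.16). Its accuracy at these lengths was not tested. GENCODE vM1 on NCBIM37 gave positions, GC and transcripts, and 6932 listed genes matched (6770 by symbol, 162 by synonym). RefSeq gave promoters. Windows were aligned with bwa.

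Named genes are the highest and lowest log2 fold change and highest CPM of each complex, core and catalytic subunits, paralog groups, genes of other lists with an FDR under 0.05, and 4 selenoprotein genes. Members and lists were chosen with earlier results of these data known. Alternatives were other FDR limits, length or GC shifts, a mean of 5 CPM, subunits only and other peers. Calculations were run in Python 3.11.15 (scipy 1.17.1, numpy 2.4.6, pandas 2.3.3) and plots in matplotlib 3.10.9.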

Additional observations from a re-analysis of the deposited data

How the results depend on the processing

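An unadjusted p under 0.05 took the count of members higher in 0.1 Se from 0 to 1 (Atp5k), and subtracting the length shift took the count of members with a log2 fold change above 0 from 59 to 34, since that shift is above 0 in the short classes where most members lie. The same subtraction took their median log2 fold change from 0.145 to 0.0131. The counts of members past an FDR of 0.05 were 0 in both directions at an FDR under 0.01, with a Bonferroni adjustment, with a 1.5-fold threshold, after the length or GC shift, and with a mean of 5 CPM or more. The median difference from mRNAs of similar length was -0.07 and ran from -0.08 without ribosomal protein peers to -0.02 with peers within a factor of 4 in CPM and to 0.0131, a change of sign, against the fitted shift. The other 26 of 30 alternative values stayed on their side of the threshold, within 1.5 times the count, or within 1 SD of the log2 fold changes over the members. The CPM-matched peers and the common shift (0.10) were chosen after seeing the data. No paired analysis was possible because the mice of the diets share no number and the results have no column for a single mouse. Leaving out each mouse, other tests, normalizations and filters on counts were not run for the same reason. With 2 mice per diet and the median error of the members, a change under about 1.20-fold would not reach an unadjusted p of 0.05. For an FDR of 0.05 the limit was about 1.34-fold.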

Other observations

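Of 16 regulators of mitochondrial biogenesis, 7 were listed, all 7 with point estimates below 0 and none with an FDR under 0.05 in edgeR (median log2 fold change -0.22). Ppargc1b, a coactivator of the genes of oxidative metabolism, was 5.20 CPM in 0 Se and 3.63 CPM in 0.1 Se (0.698-fold, 95% interval 0.508 to 0.959). Yy1 was 33.2 and 28.0 CPM (0.841-fold, 0.667 to 1.06), and Nrf1 8.37 and 7.64 CPM (0.913-fold, 0.700 to 1.19). These mRNAs are long, with a median of 3762 bases, and in the length class that holds this median (3496 to 3803 bases) 40.9% of listed genes were above 0. After subtraction of the length shift their median was -0.18, and Gabpb2 was at 0.11. The genes named here were chosen after their values were seen.

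Enzymes of the citric acid cycle and pyruvate dehydrogenase were listed for 8 of 18, with 6 above 0, a median log2 fold change of 0.14 and none with an FDR under 0.05. Pdhb, of pyruvate dehydrogenase, was 125 CPM in 0 Se and 151 CPM in 0.1 Se (1.20-fold, 0.993 to 1.45), and Ogdh, of the 2-oxoglutarate dehydrogenase, was 168 and 133 CPM (0.793-fold, 0.642 to 0.979). Ogdh has the longest mRNA of these 8, at 6691 bases. Of 18 genes that deliver electrons to ubiquinone or make it, 8 were listed, 5 above 0, with a median of 0.08 and none with an FDR under 0.05.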
